A study of Homo sapiens with 6 samples.

Results

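The mRNA of 10 genes of the G1 cell cycle machinery was compared between a parental liver cancer line and a lenvatinib-resistant line derived from it. The genes were the D-type cyclins CCND1, CCND2 and CCND3, the E-type cyclins CCNE1 and CCNE2, the Cip/Kip inhibitors CDKN1A, CDKN1B and CDKN1C, and the INK4 inhibitors CDKN2B and CDKN2C. They were chosen by gene symbol, and all 10 were present among the 19974 annotated genes of the deposited table. Huh7 P is the parental human hepatocellular carcinoma line Huh7, labelled wild type and untreated at month 0. Huh7 LR came from these cells after about 10 months in lenvatinib, at doses raised from 1 to 20 μM, and was then grown in 20 μM. Lenvatinib is an inhibitor of several receptor tyrosine kinases, among them the VEGF and FGF receptors. RNA was sequenced from 3 samples of each line. Huh7 LR is 1 derived line, so a property of that line and an effect of the drug cannot be told apart, and whether the drug was present when the RNA samples were collected is not stated.

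D-type cyclins are made when growth factors signal to a cell. They bind CDK4 and CDK6, and E-type cyclins bind CDK2. These complexes phosphorylate the retinoblastoma protein and its relatives, which releases E2F transcription factors and starts the genes of S phase. INK4 proteins bind CDK4 and CDK6 and keep D-type cyclins away. Cip/Kip proteins bind the assembled complexes, block CDK2 and can also help to assemble CDK4 with cyclin D. Much of the control of these proteins is through their degradation, which mRNA levels do not show.

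The libraries held 62738937 to 71427573 counts on genes and loci. Of 26184 genes and loci in the table, 17531 had enough counts to be tested. Levels of 1 gene are given as CPM (counts scaled to library size), corrected by the TMM method of edgeR, and levels of different genes are compared in the deposited FPKM values, which are per length. A gene is described as higher or lower where edgeR's quasi-likelihood test gave an adjusted p under 0.05, and as changed past 2-fold where the adjusted p was under 0.001 and the log2 fold change beyond 1. By the first rule 45.7% of all genes and loci tested differed between the lines (23.3% higher and 22.4% lower in Huh7 LR), and by the second rule 4.43% were higher and 1.78% lower. The median log2 fold change of all genes and loci tested was 0.0046. Of 12 hepatocyte and hepatocellular carcinoma markers, all 12 were tested, 5 were higher in Huh7 LR and 7 did not pass, and their summed level was 45948 to 55224 CPM in Huh7 P and 58672 to 61179 CPM in Huh7 LR.

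Of the 10 members, 9 had enough counts to be tested, and 3 were higher and 1 lower in Huh7 LR, a share close to that of all genes. All 4 were CDK inhibitors, and in all 4 the libraries of the lines did not overlap, a separation seen upwards in 28.2% and downwards in 27.7% of all genes and loci tested. CDKN1A, which encodes p21, rose 2.02-fold. CDKN2B, which encodes p15, rose 1.28-fold and CDKN2C, which encodes p18, 1.21-fold, and the level of CDKN1B, which encodes p27, fell to 0.849 of that in Huh7 P. Without Huh7 P replicate 2, 1 member was higher and 0 lower by edgeR, without Huh7 P replicate 3 again 0 were lower, and without Huh7 LR replicate 2 or 3 there were 2 lower. None of the 4 cyclins tested passed in this edgeR fit of all libraries, where 1 of them, CCNE2, had an unadjusted p under 0.05. CCNE2 passed by limma on filtered FPKM values (adjusted p = 0.0397) but not without the filter (0.0967). It also passed in edgeR with a block for the replicate number or without Huh7 LR replicate 3. CCNE1 passed in edgeR without Huh7 LR replicate 2.

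Promoter sequences of 6 of the 10 members matched the RefSeq table of build GRCh38.p14. CCND1, CCND2, CCNE2 and CDKN1C were not matched. The 250 bases before the transcription start are shown for CDKN1A and CDKN2B, whose mRNA was higher in Huh7 LR, and for CDKN1B, whose mRNA was lower. They read 5′ to 3′ on the strand of the gene, and capitals mark GC boxes (GGGCGG, or CCGCCC on the other strand), a motif that factors of the Sp and KLF families bind.
CDKN1A, chr6:36678464-36678713, plus strand: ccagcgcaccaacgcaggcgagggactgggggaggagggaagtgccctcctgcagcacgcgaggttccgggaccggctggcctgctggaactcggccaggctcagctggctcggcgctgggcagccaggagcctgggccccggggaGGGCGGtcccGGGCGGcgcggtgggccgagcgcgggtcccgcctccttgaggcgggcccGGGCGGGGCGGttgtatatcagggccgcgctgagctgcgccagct
CDKN1B, chr12:12717118-12717367, plus strand: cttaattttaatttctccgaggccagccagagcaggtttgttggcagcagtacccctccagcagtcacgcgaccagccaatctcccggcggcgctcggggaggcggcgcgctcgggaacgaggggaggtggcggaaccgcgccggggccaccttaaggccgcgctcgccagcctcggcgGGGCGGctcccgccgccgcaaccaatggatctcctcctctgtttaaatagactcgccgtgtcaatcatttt
CDKN2B, chr9:22009306-22009555, minus strand: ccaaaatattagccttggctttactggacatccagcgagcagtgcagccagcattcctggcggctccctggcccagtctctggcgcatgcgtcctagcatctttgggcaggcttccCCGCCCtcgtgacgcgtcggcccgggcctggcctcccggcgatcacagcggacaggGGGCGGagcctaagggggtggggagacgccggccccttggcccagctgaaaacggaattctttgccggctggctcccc
Every one of the 6 matched members, which have 10 listed starts between them, had a GC box within the 300 bases of at least 1 start (250 before and 50 after it), and 8 of the 10 starts had one. The motif was present in 57.0% of the 21030 promoters of genes in the table. The overlapping pair of GC boxes nearest the start of CDKN1A appears as 1 longer run of capitals. All motifs were searched on both strands. Neither E2F form (TTTCCCGC and TTTGGCGC) was found in the 6 members, and these forms were present in 2.0% and 0.837% of all promoters. The AP-1 form TGANTCA (6.21% of all promoters), the CRE TGACGTCA (2.24%), the TATA box TATAAA (9.25%) and the CHR TTTGAA (12.3%) were not found in them either. The FOXO form GTAAACA (2.88%) was found in CCND3 and the E-box CACGTG (8.39%) in CDKN2C. The GC box was thus present in genes that rose, in the gene that fell and in genes that did not pass the test, and a match of letters describes the window without showing that a factor binds there.

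CDKN1A had the largest change of the members. The gene lies on the plus strand of chromosome 6 (GRCh38, 36676460 to 36687339) and encodes p21, an inhibitor of CDK2 complexes that several stress signals induce. Its level was 34.2, 37.3 and 34.1 CPM for Huh7 P against 78.1, 68.1 and 66.8 CPM for Huh7 LR. Every Huh7 LR library lay well above every Huh7 P library, and the gap between the lines was wider than the range within either. The mean rose from 35.2 ± 1.86 to 71 ± 6.20 CPM (SD, n = 3 per line). This was a log2 fold change of 1.01 with a standard error of 0.08, a 95% interval of 0.83 to 1.19 and an adjusted p of 4.39e-06 by edgeR's quasi-likelihood test. CDKN1A was the 1 member past 2-fold, and its fold of 2.02 lay at that limit. The log2 fold change was 0.94 without Huh7 LR replicate 1 and 0.99 without Huh7 P replicate 1 or without Huh7 P replicate 3, so that it then fell short of 2-fold while the gene remained higher. Among the 14053 annotated genes tested, 1078 (7.67%) had a larger log2 fold change. The antisense gene DINOL, which is not among the genes counted, shares 146 bases (4.79%) of the exons of CDKN1A, and the library kit does not mark strand.

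CDKN1B moved the other way. It lies on the plus strand of chromosome 12 (12715058 to 12722371) and encodes p27, the Cip/Kip inhibitor that is abundant in resting cells and is degraded as cells enter S phase. The level was 112, 116 and 119 CPM in Huh7 P and 97.2, 97.1 and 100.2 CPM in Huh7 LR. The groups did not overlap, and the libraries of each line lay close together. The log2 fold change was -0.24 with a standard error of 0.06 (adjusted p = 0.0111, edgeR). The call depended on the Huh7 P libraries, with adjusted p = 0.0605 without replicate 2 and 0.050, just above the limit, without replicate 3.

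CDKN1C encodes p57, an inhibitor from an imprinted region of chromosome 11 (2883213 to 2885773, minus strand). Its counts were 212, 170 and 130 for Huh7 P against 156, 212 and 152 for Huh7 LR. The lines overlapped over almost their whole ranges. The means were 2.57 ± 0.510 and 2.55 ± 0.421 CPM (SD, n = 3 per line), with a log2 fold change of -0.01 (95% interval -0.45 to 0.43, adjusted p = 0.974, edgeR). An increase or decrease of up to that interval cannot be told from no change in these libraries.

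Because CDKN1A rose and CDKN1B fell, the make-up of Cip/Kip mRNA differed between the lines. On the FPKM scale, CDKN1A was at 14.5, 15.7 and 14.2 in Huh7 P against at 33.8, 29.1 and 28.6 in Huh7 LR, and CDKN1B at 39.1, 39.9 and 40.9 and at 34.6, 33.9 and 35.2. CDKN1B was the higher of the pair in all 6 libraries, and in Huh7 LR the levels came close to each other. CDKN1A made up 26.2% ± 1.05 of the summed Cip/Kip FPKM in Huh7 P and 45.7% ± 2.35 in Huh7 LR (SD, n = 3 per line), and CDKN1B fell from 70.9% to 51.9%. The ratio of CDKN1A to CDKN1B was 0.371, 0.393 and 0.347 in Huh7 P against 0.978, 0.859 and 0.812 in Huh7 LR, without overlap. The summed Cip/Kip FPKM was 56.4 ± 0.954 in Huh7 P and 66.7 ± 2.80 in Huh7 LR, a ratio of 1.18 between lines that did not overlap. On the CPM scale, which is not per length, the sum had a smaller ratio of 1.12.

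**Figure D1:**
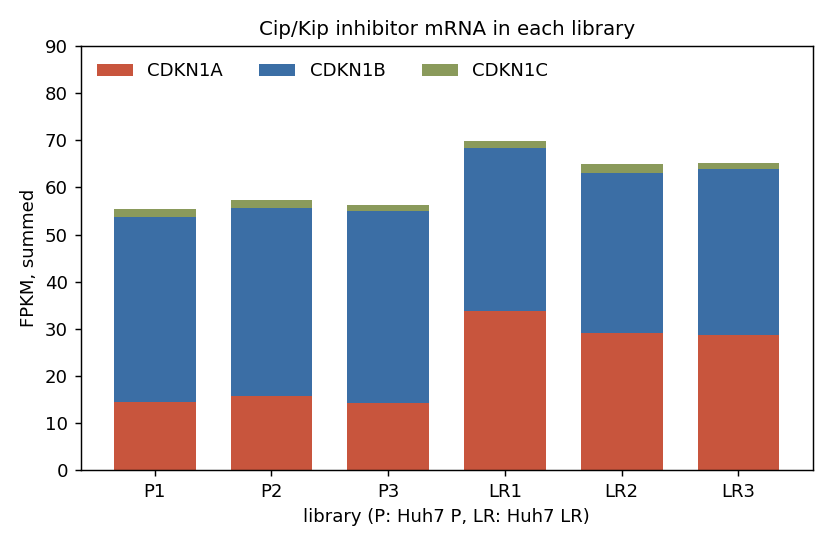
FPKM of CDKN1A, CDKN1B and CDKN1C stacked for each of the 6 libraries (P, Huh7 P; LR, Huh7 LR). The CDKN1A part grows from 14.2 to 15.7 FPKM in Huh7 P to 28.6 to 33.8 FPKM in Huh7 LR, while the CDKN1B part is lower in each Huh7 LR library.

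The INK4 inhibitors CDKN2B and CDKN2C were both higher in Huh7 LR. CDKN2B, on the minus strand of chromosome 9 (22002903 to 22009363), encodes p15, which TGF-beta signalling is known to induce. Its level was 17.7, 15.3 and 14.6 CPM in Huh7 P and 19.5, 21.3 and 20.3 CPM in Huh7 LR. The lines did not overlap, although Huh7 P replicate 1 came within a short distance of the lowest Huh7 LR library. The log2 fold change was 0.36 with a standard error of 0.10 (adjusted p = 0.0103, edgeR). The call was lost without Huh7 P replicate 2 (adjusted p = 0.0501) or without Huh7 P replicate 3 (0.0529).

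CDKN2C, on the plus strand of chromosome 1 (50960745 to 50974633), encodes p18. Its level was 21.5, 21.8 and 22.6 CPM in Huh7 P and 27.1, 27.9 and 24.7 CPM in Huh7 LR. The Huh7 P libraries lay close together and below every Huh7 LR library. The log2 fold change was 0.27 with a standard error of 0.08 (adjusted p = 0.0166, edgeR), and the call was lost without Huh7 P replicate 1 (adjusted p = 0.0629) or without Huh7 P replicate 2 (0.0712). In FPKM the ratio of the lines was 1.29, above the 1.21 found in CPM. The length that turns its counts into FPKM ran from 2.37 to 2.91 kb over the Huh7 P libraries, so the 2 units weight this gene differently.

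The summed FPKM of CDKN2B and CDKN2C was 12.2 ± 0.604 in Huh7 P and 15.8 ± 0.721 in Huh7 LR (SD, n = 3 per line), with a ratio of 1.30 and no overlap. CDKN2C made up 68.1% of it in Huh7 P and 67.8% in Huh7 LR, so the 2 genes kept nearly the same proportion. The neighbour of CDKN2B, CDKN2A, encodes p16 and ARF and was far more abundant, with 55.1 FPKM in Huh7 P and 54.1 FPKM in Huh7 LR. Its log2 fold change of -0.06 did not pass the test (95% interval -0.23 to 0.12, adjusted p = 0.600, edgeR). CDKN2D, the remaining INK4 gene, was at 5.22 ± 0.164 and 5.78 ± 0.451 CPM and did not pass either (log2 fold change 0.15, adjusted p = 0.362, edgeR). With CDKN2A and CDKN2D included, the INK4 sum was 70.9 ± 5.47 and 74.3 ± 2.0 FPKM, and the lines overlapped. The ratio of CDKN2A to CDKN2B was 14.2 ± 0.703 in Huh7 P and 10.6 ± 0.219 in Huh7 LR, without overlap.

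CCND1 encodes cyclin D1, the D-type cyclin best known as an output of growth factor signalling, and lies on the plus strand of chromosome 11 (69641087 to 69654474). Its level was 461, 442 and 422 CPM in Huh7 P and 474, 478 and 456 CPM in Huh7 LR. The highest Huh7 P library exceeded the lowest Huh7 LR library, so the lines overlapped. The means were 441 ± 19.4 and 469 ± 11.5 CPM (SD, n = 3 per line), with a log2 fold change of 0.09 (95% interval -0.06 to 0.24, adjusted p = 0.306, edgeR). The gene LTO1 on the other strand shares 497 bases (10.3%) of the exons of CCND1, and LTO1 did not pass the test (log2 fold change 0.16, adjusted p = 0.158, edgeR).

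CCND2, which encodes cyclin D2, was at or near the limit of detection. The Huh7 P libraries held 0, 0 and 3 counts of it, against 12, 3 and 3 for Huh7 LR. Where no read was counted, up to 3 counts (0.042 to 0.048 CPM) remain possible from counting error alone. All libraries but Huh7 LR replicate 1 were at or under that limit, the gene was not tested and no fold is given. CCND3, which encodes cyclin D3, gave 624, 467 and 510 counts for Huh7 P against 464, 666 and 598 for Huh7 LR. The lowest and the highest count both came from Huh7 LR samples. It had a log2 fold change of 0.08 (95% interval -0.21 to 0.37, adjusted p = 0.665, edgeR), and it was -0.01 without Huh7 LR replicate 2.

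On the FPKM scale CCND1 accounted for nearly all D-type cyclin mRNA, 96.2% in each line. The summed FPKM of the D-type cyclins was 98.2 ± 5.31 in Huh7 P and 106 ± 2.51 in Huh7 LR (SD, n = 3 per line) and overlapped. The level of CCND1 relative to the inhibitors differed by inhibitor. The FPKM ratio of CCND1 to CDKN1A was 6.4 ± 0.430 in Huh7 P and 3.37 ± 0.255 in Huh7 LR, and that of CCND1 to CDKN1B was 2.37 ± 0.178 and 2.96 ± 0.124, both without overlap.

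Both E-type cyclins had lower means in Huh7 LR, and neither passed the test with all libraries and no block for the replicate number. CCNE1, which encodes cyclin E1, was at 15.6, 17.7 and 20.4 CPM in Huh7 P and 14.1, 17.2 and 13.2 CPM in Huh7 LR. The Huh7 LR library with the highest level lay inside the Huh7 P range. The log2 fold change was -0.27 (95% interval -0.55 to 0.01, adjusted p = 0.105, edgeR), and it was -0.38 with adjusted p = 0.0302 without Huh7 LR replicate 2.

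CCNE2, which encodes cyclin E2, was at 6.84, 7.49 and 7.81 CPM in Huh7 P and 4.03, 5.54 and 7.0 CPM in Huh7 LR. The Huh7 LR libraries were spread over a much wider range than the Huh7 P libraries (coefficients of variation of 26.9% and 6.71%), and 1 of them lay inside the Huh7 P range. The log2 fold change was -0.42 with a standard error of 0.18 (95% interval -0.81 to -0.02, unadjusted p = 0.0403, adjusted p = 0.0796, edgeR). It was -0.62 with adjusted p = 0.0173 in edgeR without Huh7 LR replicate 3. CCNE2 also passed in edgeR with the block for the replicate number. In FPKM the lines did not overlap, with 2.27, 2.61 and 2.30 in Huh7 P against 1.34, 1.76 and 2.12 in Huh7 LR. The gene INTS8 on the other strand shares 1629 bases (37.0%) of the exons of CCNE2 and was lower in Huh7 LR (log2 fold change -0.35, adjusted p = 0.0049, edgeR). The library kit does not mark strand, so strand cannot assign reads in these bases to either gene. The part of INTS8 reads in the CCNE2 counts was not tested. The summed FPKM of the E-type cyclins was 11 ± 1.06 in Huh7 P and 8.95 ± 0.805 in Huh7 LR (SD, n = 3 per line), and the lines overlapped.

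**Figure D2:**
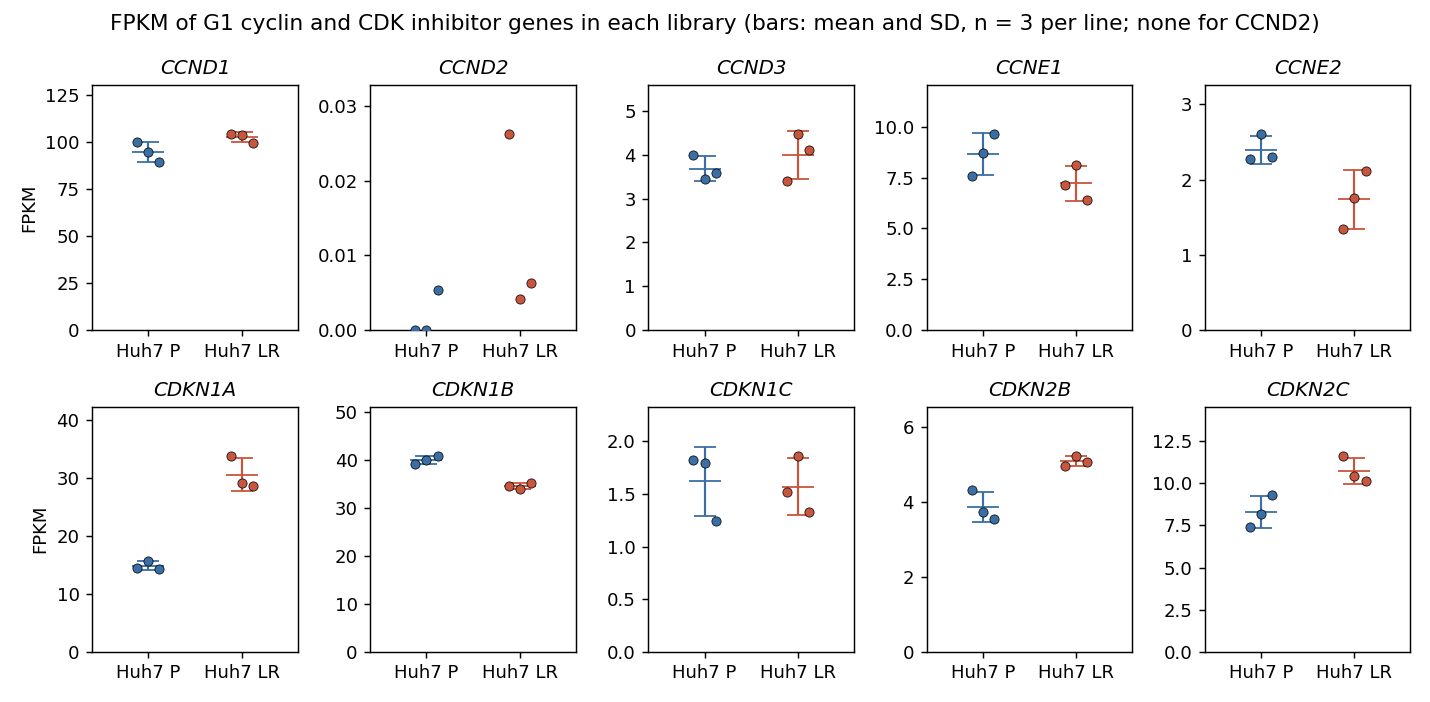
FPKM of each of the 10 genes in the 3 Huh7 P libraries (blue) and the 3 Huh7 LR libraries (red), with the mean and SD of each line except for CCND2; each axis starts at 0 and has its own scale. The points of CDKN1A are the most widely separated, from 14.2 to 15.7 FPKM in Huh7 P and from 28.6 to 33.8 FPKM in Huh7 LR.

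In order of FPKM in Huh7 P, CCND1 (94.5) was followed by CDKN1B (40.0), CDKN1A (14.8), CCNE1 (8.65), CDKN2C (8.32), CDKN2B (3.87), CCND3 (3.68), CCNE2 (2.39), CDKN1C (1.62) and CCND2. The libraries of CCNE1 and CDKN2C overlapped, as did those of CDKN2B and CCND3, and the other neighbours in the order did not. In Huh7 LR the order was CCND1 (102), CDKN1B (34.6), CDKN1A (30.5), CDKN2C (10.7), CCNE1 (7.21), CDKN2B (5.09), CCND3 (4.0), CCNE2 (1.74), CDKN1C (1.57) and CCND2. There the overlapping neighbours were CCNE2 and CDKN1C. CDKN2C and CCNE1 thus changed places, and the rest of the order was the same in both lines.

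**Figure D3:**
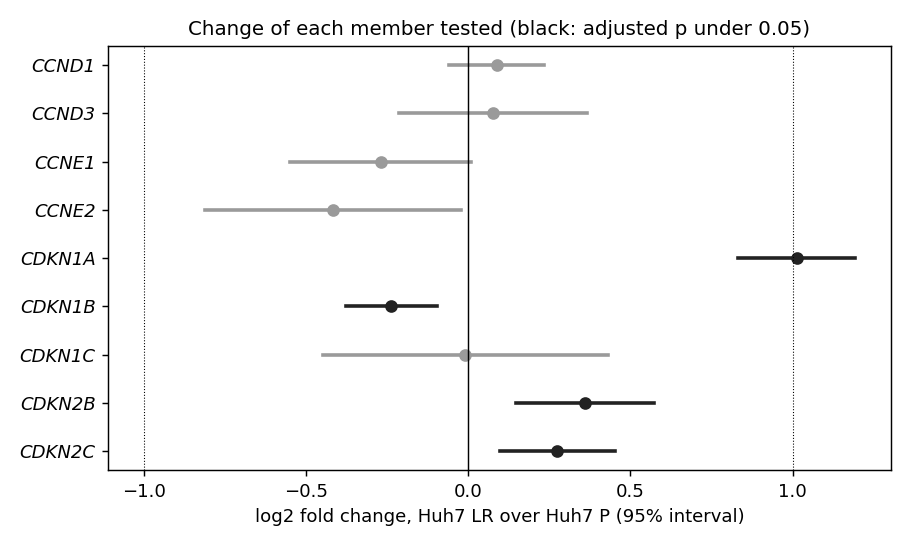
Log2 fold change of Huh7 LR over Huh7 P for the 9 genes tested, with 95% intervals from edgeR's quasi-likelihood fit; black marks an adjusted p under 0.05 and dotted lines mark 2-fold. CDKN1A stands at 1.01, CDKN2B and CDKN2C at 0.36 and 0.27, CDKN1B at -0.24, and the intervals of CCND1, CCND3, CCNE1 and CDKN1C include 0. The interval of CCNE2 (-0.81 to -0.02) does not include 0, although its adjusted p did not pass.

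The genes around the members in the pathway were described from lists. Of 13 genes of G1 kinases, their activators and pocket proteins tested, 0 were higher and 8 lower by edgeR, with a median log2 fold change of -0.29. In this list and in those of S phase and mitosis genes, 0 genes were higher at an unadjusted p under 0.05 in edgeR, or at an adjusted p under 0.05 by DESeq2 or limma. Without Huh7 LR replicate 2, 1 gene of the first list was higher. CDK6, a partner of D-type cyclins, fell from 49.4 ± 3.11 to 31.8 ± 7.30 CPM (SD, n = 3 per line), giving a log2 change of -0.63 (adjusted p = 0.00358, edgeR). CDK4, its close relative, was at 228 ± 7.67 and 232 ± 14.4 CPM and did not pass (adjusted p = 0.843, edgeR), nor did CDK2, at 104 ± 1.59 and 111 ± 14.8 CPM (adjusted p = 0.460, edgeR). The phosphatases CDC25A and CDC25B, which activate CDKs, had log2 fold changes of -0.68 and -0.64. RB1, the retinoblastoma gene, and RBL1, which encodes its relative p107, were also lower, with -0.29 and -0.48. RBL2, which encodes p130, was at 0.12 and did not pass (adjusted p = 0.274, edgeR).

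Of 10 E2F and DP factors tested, 2 were higher and 2 lower, with a median log2 fold change of -0.09. E2F1, an activator of S phase genes, was at 100.4 ± 4.43 CPM in Huh7 P and 93.6 ± 15.3 CPM in Huh7 LR and did not pass (adjusted p = 0.458, edgeR). E2F8 and E2F7 are related repressors and had log2 fold changes of -0.99 and 0.37, and E2F7 lost its call in 8 of 14 alternatives, 5 of them with 1 library left out. TFDP2, a dimerisation partner of E2F proteins, was higher (0.53) and E2F2 lower (-0.35). Of 24 E2F targets of S phase entry, 0 were higher and 20 lower, with a median of -0.40. Cyclin A2 (CCNA2) fell from 188 ± 13.5 to 108 ± 8.16 CPM, a log2 fold change of -0.80, and CDC45 and CHEK1, which act in replication and its checkpoint, had -0.78 and -0.73. Of 20 mitosis genes, 0 were higher and 19 lower, with a median of -0.57. CENPF (-1.55) and MKI67 (-1.01) were lower past 2-fold, and CDK1, the mitotic kinase, had -0.97.

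Among 8 other genes listed as inhibitors, 2 were higher and 2 lower, with a median of 0.06. The list also holds CDKN2AIP and CDKN2AIPNL, which carry the name of CDKN2A without being CDK inhibitors, and neither passed. CABLES1 (0.66) and CDK2AP2 (0.29) were higher, and CDKN3, a phosphatase that acts on CDK2, and CDK2AP1 were lower (-0.46 and -0.45). The Huh7 P and Huh7 LR libraries of CDK2AP1 overlapped, and its call was lost in 5 of 14 alternatives. Of 18 tested genes for the turnover of cyclins and CDK inhibitors, 2 were higher and 9 lower, with a median of -0.22. SKP2, the ubiquitin ligase subunit that targets p27 and p21, was 179, 189 and 193 CPM in Huh7 P and 268, 289 and 304 CPM in Huh7 LR. The lines were far apart, and the log2 fold change was 0.62 with a standard error of 0.07 (adjusted p = 5.3e-05, edgeR). FBXO31, a ligase subunit for cyclin D1, was higher (0.31). CUL1, the scaffold of the SKP2 ligase, and CKS1B, a cofactor of SKP2, were lower (-0.39 and -0.30), and CKS1B lost its call without Huh7 P replicate 2. CUL4B (-0.52) and DTL (-0.51), of a ligase that degrades p21 in S phase, were lower too.

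Of 22 transcription factors known to act on the members, 11 were higher and 3 lower, with a median of 0.27. FOXO4, of a family that activates CDKN1B, rose from 6.25 ± 0.449 to 16.4 ± 1.78 CPM (SD, n = 3 per line), a log2 fold change of 1.39 (adjusted p = 5.52e-06, edgeR). KLF4, an activator of CDKN1A, had 1.24 and EGR1 had 1.30. MYC, a repressor of CDKN1A and CDKN2B, fell from 86.0 ± 6.12 to 30.0 ± 4.10 CPM, a log2 fold change of -1.52 (adjusted p = 1.35e-06, edgeR). FOSL1, an AP-1 subunit, and ETS2 were also lower (-1.18 and -0.20), and ETS2 lost its call in 11 of 14 alternatives. Of 14 tested TGF-beta and SMAD genes, 8 were higher and 2 lower, with a median of 0.29. TGFBI (1.56), CTGF (0.78) and TGFB2 (0.64) rose most, and the ligand TGFB1 (-0.41) and the signal carrier SMAD2 (-0.34) fell. TGFB2 lost its call in 5 of the 12 alternatives that gave it a value, and SMAD2 in 3 of 14, all of them limma fits on FPKM.

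**Figure D4:**
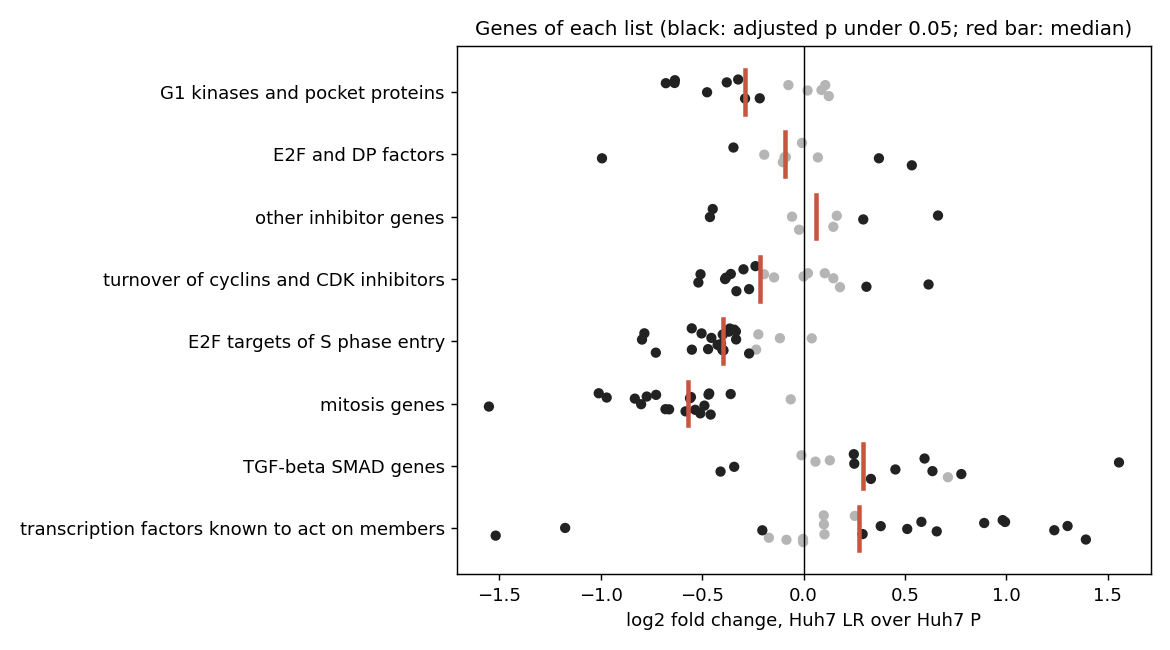
Log2 fold change of Huh7 LR over Huh7 P for each tested gene of 8 lists, black where the adjusted p by edgeR was under 0.05, with the list's median as a red bar. Medians run from -0.57 for mitosis genes to 0.29 for TGF-beta and SMAD genes, and the height of a point within its row carries no value.

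Genes next to the members on their chromosomes were also compared. Around CCND1, 8 neighbours were tested, and ANO1, a chloride channel gene, was the 1 that passed (log2 fold change 1.54). FGF19 (-0.05), FADD (0.12), PPFIA1 (0.11) and CTTN (-0.08) did not pass, nor did MYEOV, at under 1 CPM in both lines (-1.14, adjusted p = 0.0514, edgeR). MYEOV had 37, 18 and 28 counts in Huh7 P against 10, 18 and 10 in Huh7 LR. Its Huh7 LR counts lay at the limit of the filter on low counts, which it passed through Huh7 P. Without Huh7 LR replicate 1, 2 neighbours were higher, and without Huh7 LR replicate 2, or with at least 10 counts in every library, 1 was lower. Around CDKN1C, 8 were tested. The growth factor gene IGF2, with 4, 7 and 7 counts in Huh7 P against 22, 19 and 12 in Huh7 LR, passed the filter on low counts only through Huh7 LR, so its difference is not counted here. Of the other 7, SLC22A18 was higher (0.52), and CD81, CARS and NAP1L4 were lower (-1.79, -0.55 and -0.36). Around CDKN2B, MTAP (-0.44) and DMRTA1 (-0.30) were lower while CDKN2B was higher, and CDKN2A did not pass. The call of DMRTA1 was lost in 12 of 14 alternatives, and that of MTAP in 0.

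Among the genes whose levels followed CDKN1A most closely over the 6 libraries were BTRC and KDM5B, with Pearson's r of 0.9993 and 0.9986. This is a description over 12514 genes, of which 1302 had r above 0.95. The 6 points form 2 clusters of 3 libraries, so the r mostly reflects the difference between the lines.

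Markers of other cell types were counted because bulk RNA is a sum over cells, in which fewer cells of a type and less RNA per cell cannot be told apart. Of 7 fibroblast markers 2 were tested and both were higher in Huh7 LR (summed level 2.15 to 2.28 CPM in Huh7 P and 5.02 to 8.02 CPM in Huh7 LR), with THY1 and DCN at 0 in every library. Of 7 leukocyte markers 3 were tested and LYZ was the 1 that was lower (62.4 to 67.7 and 10.2 to 14 CPM summed), with TYROBP and HLA-DRA at 0. Of 4 endothelial markers 2 were tested and PECAM1 was higher (38.8 to 47.5 and 65.0 to 71.2 CPM summed), with CDH5 and KDR at 0. VWF, the other marker tested, had 0, 0 and 8 counts in Huh7 P against 19, 26 and 21 in Huh7 LR and passed the filter only through Huh7 LR. The part of these markers in the results was not tested.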

How the data were processed

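RNA of 3 Huh7 P and 3 Huh7 LR samples was sequenced after poly(A) selection and NEBNext Ultra library preparation, a kit that does not mark strand. The study calls the samples independent, and p-values measure the spread between them. The authors deposited whole read counts per gene without normalization, and FPKM values, which the authors scaled for length and library size. The submitters' processing notes name TopHat2, Cufflinks, DESeq and the mouse build mm10, and the labels describe insect tissue, whereas the gene identifiers are human. The strand setting of the read counting is not given in the sources used here. The table also held 34 lines of annotation text, which were excluded. Between 2.86% and 3.35% of counts fell on loci that carry no annotated gene.

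The count tests were run by edgeR 4.0.16 (R 4.3.3): genes with few counts were dropped by filterByExpr at its settings of 10 per library and 15 in total, libraries were scaled by TMM factors of 0.977 to 1.03, and the lines were compared by the quasi-likelihood test, with Benjamini-Hochberg adjustment over all 17531 genes and loci tested. The script was tested on simulated data. The alternatives were the size factors and the Wald test of DESeq2 1.42.0, fits with no filter and with 10 or more counts required of every library, a block for the replicate number, limma-trend (limma 3.58.1) on log2(FPKM + 0.1) or log2(FPKM + 1) where a gene reached 0.5 FPKM in 3 or more libraries, log2(FPKM + 0.1) without that filter, and each library left out in turn. Refitting the pathway lists and their genes under these was added after seeing the data. Sums and ratios of FPKM are descriptions without a test. Coordinates and exon overlaps are from GENCODE release 29 (GRCh38), and promoters from RefSeq (GRCh38.p14). Figures were drawn with matplotlib 3.10.9.

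The members and lists were chosen with earlier results of these data known. All 10 members are named. From each list, up to 3 genes with the largest rise and 3 with the largest fall were named among those with an adjusted p under 0.05 and at least 1 CPM in a line, together with any member of the lists of neighbours, G1 kinases and pocket proteins, E2F factors and other inhibitors. CKS1B was named outside this rule after its values were seen. Some genes that the rule selects, and 1 list, are not reported here. KCNQ1OT1, H19 and CDKN2B-AS1 were not analysed here.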

Additional observations from a re-analysis of the deposited data

How the results depend on the processing

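Of 126 values of the 9 tested members under 14 alternatives each, 109 kept their direction and their side of the threshold. CDKN1A stayed higher in all 14, with log2 fold changes of 0.94 to 1.06, and was not past 2-fold on log2(FPKM + 1), where 0 members were, or without 3 single libraries (0 to 1). With a library left out, 1 to 3 members were higher and 0 to 2 lower, and the log2 fold changes ran from -0.26 to -0.22 for CDKN1B, 0.30 to 0.44 for CDKN2B, 0.25 to 0.32 for CDKN2C, -0.38 to -0.17 for CCNE1, -0.62 to -0.24 for CCNE2, -0.01 to 0.19 for CCND3 and -0.17 to 0.10 for CDKN1C. The last 2 genes changed sign. CCND3 was at -0.0064 without Huh7 LR replicate 2. CDKN1C was at 0.0076 with at least 10 counts in every library, at 0.10 and 0.05 without Huh7 P replicate 1 or 2, and at 0.03 and 0.08 without Huh7 LR replicate 1 or 3. CCNE2 passed, and 2 members were lower, on log2(FPKM + 0.1) (-0.46, adjusted p = 0.0397) and log2(FPKM + 1) (-0.32, adjusted p = 0.0357) by limma. Correlations between same-numbered samples were small (0.0572, 0.0668 and 0.0254), and each library correlated best with its own number. Whether the replicate numbers pair the libraries was not tested. With the replicate block, 2 members were lower, since CCNE2 passed (-0.45, adjusted p = 0.0247, edgeR), and no other member changed its call. CCND2 had too few counts for the test. Without the filter its log2 fold change was not past the threshold (adjusted p = 0.272, edgeR). The log2 ratio of the Cip/Kip sum was 0.24 in FPKM and 0.16 in CPM. Of all genes, 776 were higher and 312 lower past 2-fold, against 268 and 84 on log2(FPKM + 1) and 353 and 120 on log2(FPKM + 0.1) without a filter, and 551 to 734 and 224 to 340 with a library left out. Over the alternatives, S phase targets gave 18 to 22 lower, mitosis genes 18 to 19 lower and G1 kinases and pocket proteins 6 to 8 lower. E2F factors gave 1 to 2 higher and 2 to 4 lower, other inhibitors 2 to 4 higher and 1 to 2 lower, TGF-beta and SMAD genes 5 to 9 higher and 1 to 2 lower, neighbours of CDKN2B 1 to 2 lower, and neighbours of CCND1 1 to 2 higher and 0 to 1 lower. The causes were not tested.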
